A study of Rattus norvegicus with 15 samples.

Results

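The genes described are the heat shock proteins, the cytosolic chaperonin and the proteasome of rat great vessels around birth. They were chosen by the letters of their symbols: Hspa, Hspb, Hspd, Hspe or Hsph with a number, Hsp90 with letters, Dnaja, Dnajb or Dnajc with a number, Cct with a number, and Psma to Psmg with a number, leaving out Psmb8 and Psmb9. A probe set counted where it was annotated to a single such gene. This gave 202 of 26202 probe sets, 99, 49 and 54 from chips A, B and C, and 103 of 10969 genes: 20 Hsp, 31 Dnaj, 7 Cct and 45 Psm. By letters alone the Psm group also takes in Psmc3ip and Psme3ip1, which are named for binding a subunit and are no subunits. A further 16 probe sets that name a member among several genes were left out, and Hspa8 and Hsp90aa1, for which no single-gene probe set was used, are not analysed here.

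RNA came from 5 states of rat vessel: ductus arteriosus and aorta (arch and thoracic part) of fetuses at gestation day 19 delivered by caesarean section, both vessels of vaginally delivered newborns aged 3 h, and ductus of fetuses at gestation day 19 whose dams had breathed 100% oxygen for 3 h, called the oxygen ductus below. Vessels were dissected free of adhering tissue in medium gassed with oxygen, at 2.5% (fetal vessels) or 12.5% (newborn vessels). The labels give no strain, genotype or number of animals per array, and the title of 1 array, the newborn aorta on chip A, counts its hours from coitum where its description says newborn. There was 1 array per state on each of 3 Affymetrix chip types (A, B, C), 15 in all, so every ratio of 2 states compares 2 arrays and has no replicate check.

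Heat shock proteins are chaperones: Hsp70 proteins (Hspa) and their J-domain partners (Dnaj) bind unfolded stretches, Hsp90 proteins finish folding clients, small heat shock proteins (Hspb) hold unfolded protein, and the ring-shaped chaperonins Hspd1 with Hspe1 (mitochondria) and Cct (cytosol, for actin and tubulin among others) fold proteins in a closed chamber. The proteasome degrades ubiquitin-tagged protein: Psma and Psmb subunits form the core, Psmc ATPases and Psmd subunits the regulatory cap, Psme proteins are activators, and Psmg proteins assist assembly. Heat shock factor switches on many chaperone genes through inverted repeats of the unit GAA, and the unfolded protein response switches on those of the endoplasmic reticulum.

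Values are signal intensities that the authors had scaled to a common mean on every array. Signals below the pooled median of a chip, 149.8 for A, 241.7 for B and 243.0 for C, were raised to it as a floor, and where that happened on 1 side of a fold the text says "at least". Where several probe sets read a gene, the brightest stands for it, and 92 of the 103 genes were above the floor on at least 1 array, 82 on all 5. The other 11 genes (8 of them Dnaj, with Hspa12a, Hspa1l and Hspb3) stayed under it everywhere. A gene that passed only through a state where it is bright had to differ there, so counts below are over the genes measured in each pair. A gene that does not differ was estimated to scatter by 0.24 to 0.35 (SD of the log2 ratio, by chip and signal level), with a median of 0.31. This estimate came from the vessel-by-birth contrast. It therefore holds any real difference in birth response between the vessels, and it leaves out the oxygen arrays. Genes at least 1.5-fold apart (0.585 on the log2 scale) are counted below without a test.

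The 3 oxygen ductus arrays stood apart in RNA quality. The signal ratio of the 3′ to the 5′ probe set of the beta-actin control was 2.54 to 3.26 on them and 1.19 to 1.51 on the other 12 arrays, and that of GAPDH was 1.69 to 2.49 against 1.26 to 1.58. They also had the smallest shares of probe sets above the floor. Oxygen comparisons therefore set members side by side on arrays that differ in this measure, and its part in them was not tested. Markers of other tissues also differed between states, as the summed signals beside the results show. In whole vessels, fewer cells of a type and less RNA per cell cannot be told apart. The smooth muscle that defines these vessels was seen in all states, with 7 of 7 markers on the chips above the floor everywhere and a summed signal of 43198 to 98851.

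In the fetus, 6 of 89 measured members were at least 1.5-fold higher in ductus than aorta (6.74%, against 4.20% of 7610 genes) and 0 lower (5.10% of all genes). Between newborn ductus and newborn aorta the counts were 7 higher and 6 lower of 90 (7.78% and 6.67%, against 6.16% and 5.98% of all). Apart from the 0 lower in the fetus, these shares lay near the background. Quantile normalisation moved the fetal split to 6 higher and 1 lower.

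At birth, from fetal to newborn ductus, 2 of 90 members were higher (2.22%, against 7.56% of all genes) and 6 lower (6.67%, against 9.59%). In the aorta 6 of 87 were higher (6.90%, against 7.57%) and 4 lower (4.60%, against 11.0%). Centring arrays on their medians turned these splits into 3 higher and 5 lower in the ductus and 10 higher and 3 lower in the aorta. The shares over all genes were then 8.94% higher and 8.02% lower in the ductus and 8.55% and 9.65% in the aorta, with 11.5% of members higher in the aorta. With the scaling as deposited, members past 1.5-fold were no more frequent at birth than genes in general.

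In oxygen against fetal ductus, 2 of 91 members were higher (2.20%, against 4.44% of all genes) and 0 lower (5.38% of all). In newborn against oxygen ductus, 5 of 91 were higher (5.49%, against 10.5%) and 19 lower (20.9%, against 14.5%), and 12 of those 19 were proteasome genes. Both the 2 higher under oxygen and these 19 hold Dnajc2. It was above its floor in oxygen ductus alone, so it could only count this way. Without such genes, 0 Dnaj genes were higher under oxygen and 1 was lower in newborn than oxygen ductus. These 2 comparisons share the oxygen arrays, and each also shares an array with the birth comparison of the ductus.

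**Figure D1:**
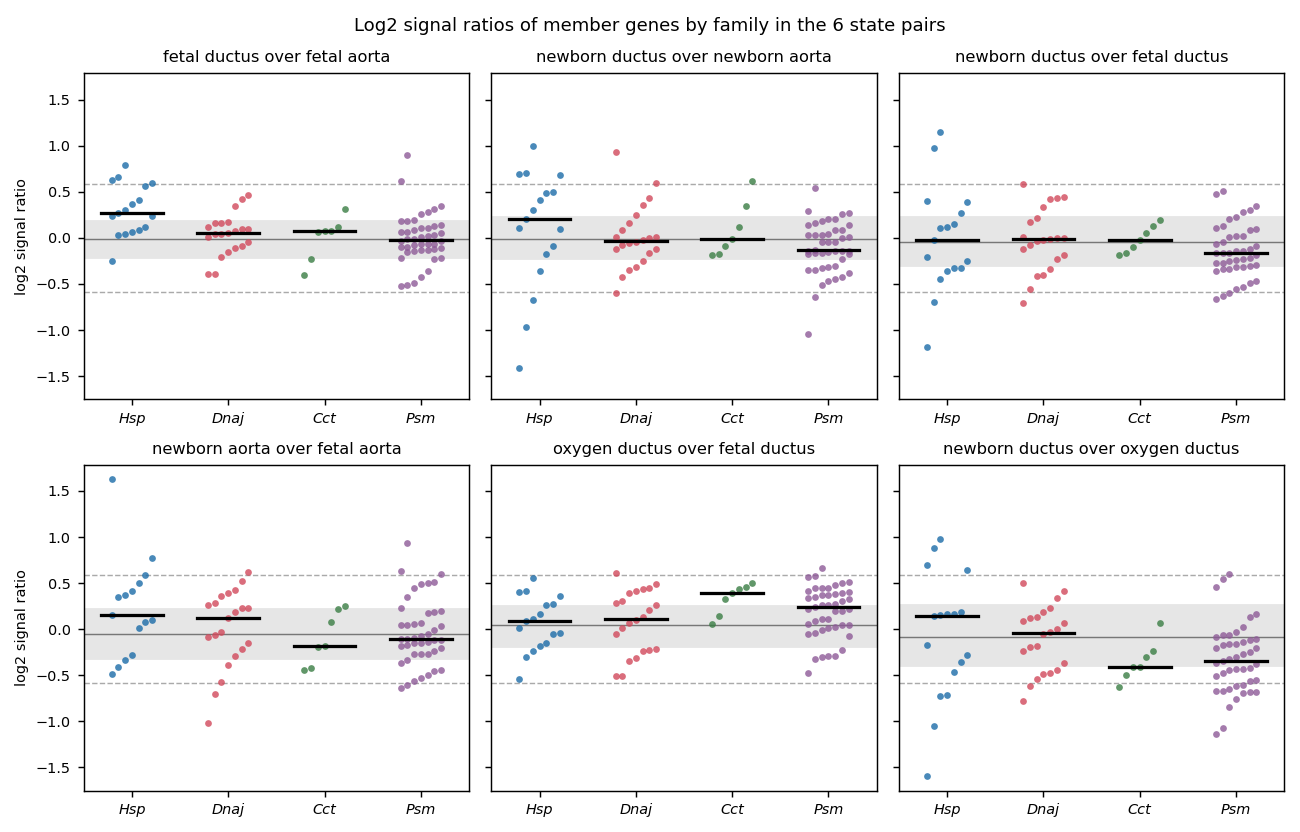
Log2 signal ratio (y axis) of each measured member gene (points) by family (x axis) in the 6 state pairs, with the family median as a black bar, the median and middle 50% of all genes as a grey line and band, and 1.5-fold as dashed lines. The Cct and Psm medians are 0.39 and 0.24 for oxygen over fetal ductus and -0.41 and -0.35 for newborn over oxygen ductus.

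Among heat shock genes as a whole, 16 of 17 measured read higher in ductus than aorta in the fetus (median log2 0.27), and 11 of 17 in the newborn (0.21). Over all genes, 47.9% and 49.0% read higher in ductus. Both heat shock counts hold Hspa2 and Hspa12b, whose aorta signals lay under the floor, so they could only read higher in ductus. Of the 15 above the floor on all 5 arrays, 8 were lowest in fetal aorta (53.3%, against 17.1% of all genes). The small heat shock genes had the highest family median between the fetal vessels. All 5 measured members read higher in ductus than aorta, in the fetus (median log2 0.63, against -0.02 over all genes) and in the newborn (0.21, against -0.01). In the fetus, 3 passed 1.5-fold. Hspb2, made in heart and muscle and the neighbour of the alphaB-crystallin gene, gave a signal of 1099 in fetal, 992 in oxygen and 879 in newborn ductus, and 636 in fetal and 822 in newborn aorta. Fetal ductus was thus 1.73-fold above fetal aorta, while the newborn vessels differed by 0.10 on the log2 scale. On chip A its brighter probe set gave a smaller fetal difference, 0.39.

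Hspb6, a small heat shock protein of smooth and striated muscle, measured 708 in fetal, 625 in oxygen and 696 in newborn ductus, and 448 in fetal and 497 in newborn aorta. The 3 ductus arrays all lay above both aorta arrays, 1.58-fold in the fetus and 1.40-fold in the newborn, and a dimmer probe set gave the same order (0.51 and 0.56). Hspb7, a cardiovascular member, gave 1528 in fetal, 1962 in oxygen and 945 in newborn ductus, and 989 in fetal and 817 in newborn aorta on chip B, 1.54-fold higher in fetal ductus than fetal aorta. Its chip C probe set gave 168 in fetal, 162 in oxygen and 440.5 in newborn ductus, and 84.5 in fetal and 105 in newborn aorta. Only newborn ductus was above its floor of 243.0, so this probe set could only read highest there. The log2 ratio of newborn over fetal ductus was -0.69 on chip B and at least 0.86 on chip C. No direction is therefore given for Hspb7 at birth. Hspb8 was even across states, from 406 to 470.4.

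Heart muscle markers moved with the fetal difference. All 10 measured were at least 1.5-fold higher in fetal ductus than fetal aorta, with a summed signal of 24860.5 in fetal, 20091 in oxygen and 7858 in newborn ductus and 9819 in fetal and 13598 in newborn aorta. Of these, Myl3, Nppa and Pln lay under the floor in both aorta states, so they could only read higher in ductus. Between newborn vessels heart muscle markers went the other way, with 6 of 8 lower and 1, Nppa, higher in ductus (median -0.78). Of 7 smooth muscle markers, 5 were at least 1.5-fold higher in ductus in the fetus (median 0.69) and 5 in the newborn (0.84). The part of either cell type in the Hspb signals was not tested.

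Hspb1, the widely made stress-induced Hsp27, was the brightest in newborn ductus by its brightest probe set: 3126 in fetal, 3327 in oxygen and 6140.2 in newborn ductus, and 2429 in fetal and 3086 in newborn aorta. Newborn ductus was 1.96-fold above fetal ductus and 1.99-fold above newborn aorta, and newborn aorta 1.27-fold above fetal aorta. Another probe set gave 1784 in fetal, 1470.3 in oxygen and 3280.0 in newborn ductus, and 963 in fetal and 1678 in newborn aorta. The other 2 share 1 accession. The brighter of them measured 3168 in fetal, 4239.7 in oxygen and 4404 in newborn ductus, and 1532 in fetal and 3192 in newborn aorta, and the dimmer 987 in fetal, 818 in oxygen and 1375 in newborn ductus, and 1506 in fetal and 1794 in newborn aorta. All 4 read higher after birth in both vessels, by 0.48 to 0.97 in ductus and 0.25 to 1.06 in aorta. They split on the vessel: 3 were higher in ductus at both ages, and the dimmest was lower (-0.61 in the fetus, -0.38 in the newborn). When only probe sets with a plain suffix are read, that dimmest one is left, and the newborn difference turns to -0.38.

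Hspa1a, the stress-inducible Hsp70, behaved alike at birth. On chip C it gave 534 in fetal, 599 in oxygen and 1182 in newborn ductus, and 492 in fetal and 738 in newborn aorta, and on chip A, where the fetal and oxygen signals lay under the floor, 123 in fetal, 102 in oxygen and 315 in newborn ductus, and 139.8 in fetal and 230.3 in newborn aorta. Newborn ductus was the highest of the 5 states on both chips. On chip C it stood 2.21-fold above fetal ductus and 1.60-fold above newborn aorta, and newborn aorta lay above fetal aorta by 0.58 on the log2 scale, just under the threshold. These probe sets match several transcripts by their suffix, and Hspa1a has a near-identical neighbour, Hspa1b, so their signal may come from either gene. Oxygen ductus lay near fetal ductus: Hspa1a differed from fetal ductus by 0.17 and Hspb1 by 0.09 on the log2 scale. Hspb1 and Hspa1a were also the 2 members past 1.5-fold higher at birth in the ductus, and 0 were when only plain-suffix probe sets were read. Of 7 smooth muscle markers, 5 were higher by as much at birth in ductus (median 0.59) and 2 in aorta (0.44), with 0 lower in either. Their summed signal was 65208 in fetal, 68612 in oxygen and 98851 in newborn ductus, and 43198 in fetal and 59228 in newborn aorta. The part of smooth muscle in the Hspb1 and Hspa1a signals was not tested.

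**Figure D2:**
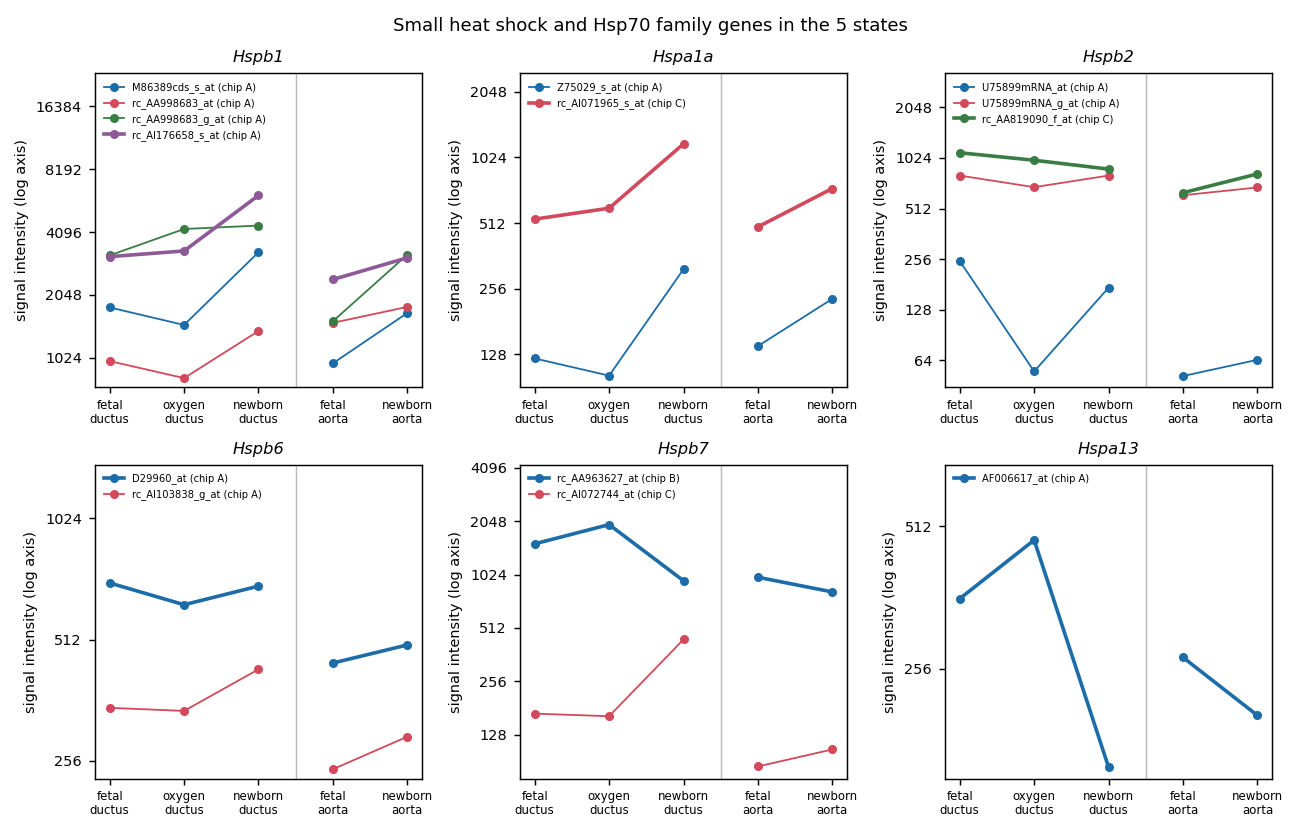
Signal intensity (log y axis) in the 5 states of every measured probe set of 6 heat shock genes, 1 array per point, ductus left and aorta right of the grey line, with the brightest probe set as a thick line. Hspa1a and 3 of the 4 Hspb1 probe sets are highest in newborn ductus, the dimmest Hspb1 probe set is highest in newborn aorta, and the 2 Hspb7 probe sets go apart between fetal and newborn ductus.

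Other Hsp70 genes went their own ways. Hspa13, a small Hsp70 relative of microsomes, measured 359.7 in fetal, 478 in oxygen and 159 in newborn ductus, and 270.4 in fetal and 204 in newborn aorta. Newborn ductus was 2.27-fold below fetal and 3.02-fold below oxygen ductus, and newborn aorta 1.33-fold below fetal aorta. Hspa2, known from testis, was above the floor in the 3 ductus states only: 227 in fetal, 219 in oxygen and 245 in newborn ductus, and 103 in fetal and 141 in newborn aorta. It was at least 1.51-fold higher in fetal and at least 1.63-fold higher in newborn ductus than in the aorta of that age. Hspa12b, an endothelial member, gave 300.5 in fetal, 188 in oxygen and 393 in newborn ductus, and 231 in fetal and 215 in newborn aorta, at least 1.62-fold higher in newborn ductus than newborn aorta. Both rest on dim signals: with the floor at the 60th percentile of the chip, the newborn difference shrank to 0.04 for Hspa2 and 0.15 for Hspa12b.

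Hspa4 and Hsph1 act as nucleotide exchange factors for Hsp70. Hspa4 ranged from 381 in oxygen to 595 in newborn ductus, a 1.56-fold difference that its other measured probe set did not show (0.02). Hsph1 measured 672 in fetal, 653 in oxygen and 730.0 in newborn ductus, and 558 in fetal and 589.8 in newborn aorta, with no pair past 1.5-fold. Over the 8 measured genes of this group the median birth ratio in the ductus was 0.20, with Hspa1a the highest and Hspa13 the lowest.

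Promoters were read from RefSeq windows on build GRCr8, 250 bases before to 50 after each annotated start, which were found for 90 of the 103 members. Both strands were searched for the heat shock unit pair, GAANNTTC or TTCNNGAA, and for 3 units in a row, in which 2 free bases and a further unit follow the pair. Windows with 3 units numbered 267 of 33469 (0.798%) over all genes and 5 of 90 among members: Hspd1, Hspe1, Hsph1, Dnaja1 and Cct4. The windows of Hspd1 and Hspe1 overlap and hold the same matches, so they are not separate sites. The pair alone was in 5305 windows (15.9%) and in 19 member windows, Hspb1, Hspb6, Hspb8, Hspa9 and Dnajb1 among them. A match is a description of letters and not of binding. The windows below, with the matches in capitals, are those of Hspb1, described above, of Hspe1, described next, and of the Hsp70 helpers Dnaja1 and Hsph1. They lie on build GRCr8 at chr9:64084077-64084376 (plus strand), chr5:60638154-60638453 (plus strand), chr12:10427118-10427417 (plus strand) and chr12:26432252-26432551 (minus strand), and the matches start at bases -65 and -60 of Hspe1, 9 of Dnaja1, -36 of Hsph1, and -129 and -109 of Hspb1, counted from the annotated start as base 0.
Hspe1: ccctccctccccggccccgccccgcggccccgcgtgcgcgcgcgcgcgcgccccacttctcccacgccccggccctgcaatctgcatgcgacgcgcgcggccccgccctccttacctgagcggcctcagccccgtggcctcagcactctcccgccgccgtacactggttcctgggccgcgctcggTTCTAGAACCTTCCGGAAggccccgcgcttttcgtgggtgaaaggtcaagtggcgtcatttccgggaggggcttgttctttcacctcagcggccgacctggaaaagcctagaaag
Dnaja1: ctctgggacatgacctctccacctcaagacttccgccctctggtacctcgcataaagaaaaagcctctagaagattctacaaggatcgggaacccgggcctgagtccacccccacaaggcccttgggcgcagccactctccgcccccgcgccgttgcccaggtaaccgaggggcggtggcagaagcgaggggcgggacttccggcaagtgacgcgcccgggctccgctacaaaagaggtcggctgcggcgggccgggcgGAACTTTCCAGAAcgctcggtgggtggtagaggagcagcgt
Hsph1: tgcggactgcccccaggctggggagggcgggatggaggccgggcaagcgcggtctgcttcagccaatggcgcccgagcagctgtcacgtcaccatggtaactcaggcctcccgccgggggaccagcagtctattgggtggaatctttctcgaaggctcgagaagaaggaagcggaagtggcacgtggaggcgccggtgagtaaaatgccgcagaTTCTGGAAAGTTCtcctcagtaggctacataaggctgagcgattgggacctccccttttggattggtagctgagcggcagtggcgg
Hspb1: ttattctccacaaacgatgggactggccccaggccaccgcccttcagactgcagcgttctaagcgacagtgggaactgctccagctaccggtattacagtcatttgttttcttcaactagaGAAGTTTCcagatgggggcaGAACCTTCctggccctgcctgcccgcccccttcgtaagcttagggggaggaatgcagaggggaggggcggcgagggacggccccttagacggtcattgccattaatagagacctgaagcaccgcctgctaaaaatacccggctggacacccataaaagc

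Hspd1 and Hspe1, the mitochondrial chaperonin ring and its lid, had the same order of states by their brightest probe sets. Hspd1 gave 3186 in fetal, 3851 in oxygen and 2339 in newborn ductus, and 2694 in fetal and 4586 in newborn aorta, and its other probe set 1672 in fetal, 2297 in oxygen and 1419.7 in newborn ductus, and 1437 in fetal and 2712 in newborn aorta. Hspe1 gave 3084 in fetal, 3686 in oxygen and 2661 in newborn ductus, and 3006 in fetal and 4249.7 in newborn aorta, and its other probe set 2523 in fetal, 3219.8 in oxygen and 1968 in newborn ductus, and 2593 in fetal and 3519.8 in newborn aorta. In all 4 probe sets newborn aorta was the highest state and newborn ductus the lowest, though by little in the dimmer Hspd1 probe set. Newborn aorta stood 1.70-fold (Hspd1) and 1.41-fold (Hspe1) above fetal aorta, and 1.96-fold and 1.60-fold above newborn ductus. From fetal to newborn ductus the log2 ratios were -0.45 and -0.21. The starts of these genes lie head to head on chromosome 9, 290 bases apart, so that their windows share 211 bases, with the heat shock matches printed above for Hspe1 inside the shared stretch.

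Hspa9, the mitochondrial Hsp70 that feeds this chaperonin, gave 240.3 in fetal, 166 in oxygen and 188 in newborn ductus, and 162 in fetal and 502 in newborn aorta. Newborn aorta was 3.09-fold above fetal aorta and 2.67-fold above newborn ductus, while newborn and fetal ductus differed by -0.35. Its other measured probe set, dim as well, measured 205 in fetal, 173 in oxygen and 174 in newborn ductus, and 167 in fetal and 198 in newborn aorta and hardly differed (0.25 and -0.19), so the Hspa9 values rest on 1 probe set that matches several transcripts. The birth ratios of ductus and aorta differed by -1.98 on the log2 scale for Hspa9 and -1.21 for Hspd1. This difference was not tested, since the fit used it as its error.

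Most fat markers moved with these genes. Of 8 measured, 7 were at least 1.5-fold higher in newborn than fetal aorta and 7 lower in newborn ductus than newborn aorta. Adipoq, Ucp1, Pparg, Cfd and Gpd1 were above the floor in newborn aorta alone, so they could only count this way. Lep, bright in every state, went the other way (2803 in fetal and 2468 in newborn aorta, 3116 in newborn ductus). The summed signal of the fat markers was 14250.5 in newborn aorta, 3394 in fetal aorta and 2428 to 4276 in the ductus states. Outside newborn aorta most of it came from Lep. Ucp1, the uncoupling protein of brown fat, and Adipoq lay under the floor in every state but newborn aorta, where they reached 876 and 1075. The part of fat in the chaperonin signals was not tested. Of 6 other mitochondrial folding and protease genes set beside them, Grpel1, the exchange factor of Hspa9, was higher in newborn than fetal aorta (log2 0.73), and Clpx and Clpp were lower (-1.24 and -0.67).

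**Figure D3:**
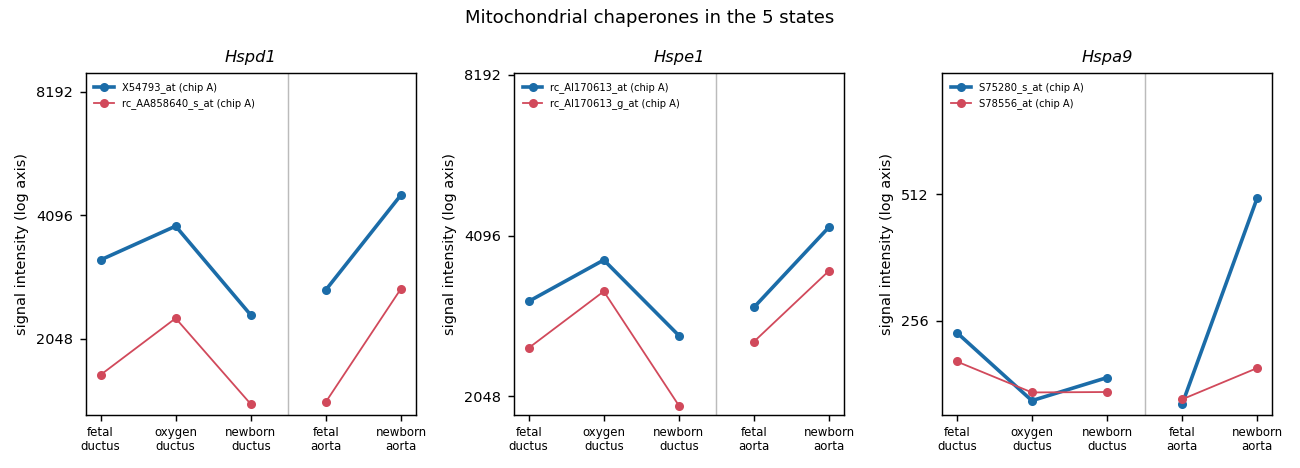
Signal intensity (log y axis) of the measured probe sets of Hspd1, Hspe1 and Hspa9 in the 5 states, 1 array per point, ductus left and aorta right of the grey line, the brightest probe set thick. All 4 Hspd1 and Hspe1 probe sets are highest in newborn aorta, and of Hspa9 only the brightest reaches 502 there.

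The cytosolic Hsp90 read here was even between tissues and ages. Hsp90ab1, the constitutive form, measured 10446 in fetal, 11249.8 in oxygen and 8797 in newborn ductus, and 9824 in fetal and 9935 in newborn aorta, and no pair without the oxygen arrays passed 1.5-fold in any of its 4 probe sets. Under oxygen 3 of the 4 were higher than fetal ductus by 0.10 to 0.20, and the fourth lower by a log2 ratio of -0.59. The split was wider for Hsp90b1, the Hsp90 of the endoplasmic reticulum. By its brightest probe set (chip C) it gave 4142 in fetal, 5473 in oxygen and 3307 in newborn ductus, and 3504 in fetal and 2494 in newborn aorta, and a chip A probe set also read higher under oxygen (0.46). Of its other measured probe sets, 2 on chip A were at -1.29 and -1.20 and 1 on chip C at -0.57. No direction can be given for Hsp90b1 in oxygen ductus, nor for newborn against oxygen ductus, where the same probe sets ran from -0.73 to 1.04. Between fetal and newborn aorta all 5 read lower after birth, the brightest by 1.40-fold.

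Hspa5, the Hsp70 of the endoplasmic reticulum and usual readout of the unfolded protein response, measured 3161 in fetal, 4649 in oxygen and 3820.3 in newborn ductus, and 3061 in fetal and 4070.2 in newborn aorta. Oxygen ductus was the highest state, 1.47-fold above fetal ductus, and a dimmer probe set gave 1.88-fold. Of 15 other genes of the endoplasmic reticulum set beside it, 0 were higher and 1, Pdia4 (-0.78), lower under oxygen past 1.5-fold, with a median of 0.05 and with Manf (0.56) and Sdf2l1 (0.52) nearest to Hspa5. Hspa5 and Hsp90b1 are the 2 members whose windows hold the endoplasmic reticulum stress element, CCAAT and CCACG with 9 free bases between them on either strand, found in 22 of 33469 windows (0.0657%). They are shown because these genes are known targets whose probe sets did not run together here. The windows lie at chr3:38452766-38453065 (plus strand) and chr7:23012244-23012543 (minus strand), with matches starting at bases -43 of Hspa5 and -176 and -72 of Hsp90b1.
Hspa5: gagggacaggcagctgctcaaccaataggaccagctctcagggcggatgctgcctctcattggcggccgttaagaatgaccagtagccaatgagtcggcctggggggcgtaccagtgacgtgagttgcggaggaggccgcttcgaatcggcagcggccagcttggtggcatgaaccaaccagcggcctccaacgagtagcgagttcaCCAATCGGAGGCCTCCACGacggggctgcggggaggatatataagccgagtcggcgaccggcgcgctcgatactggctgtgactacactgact
Hsp90b1: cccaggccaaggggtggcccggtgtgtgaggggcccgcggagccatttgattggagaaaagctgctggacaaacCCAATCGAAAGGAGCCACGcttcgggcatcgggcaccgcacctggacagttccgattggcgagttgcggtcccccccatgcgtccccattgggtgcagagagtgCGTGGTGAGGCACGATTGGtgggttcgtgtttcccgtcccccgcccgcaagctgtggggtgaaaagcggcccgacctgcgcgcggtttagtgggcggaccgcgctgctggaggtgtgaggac

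**Figure D4:**
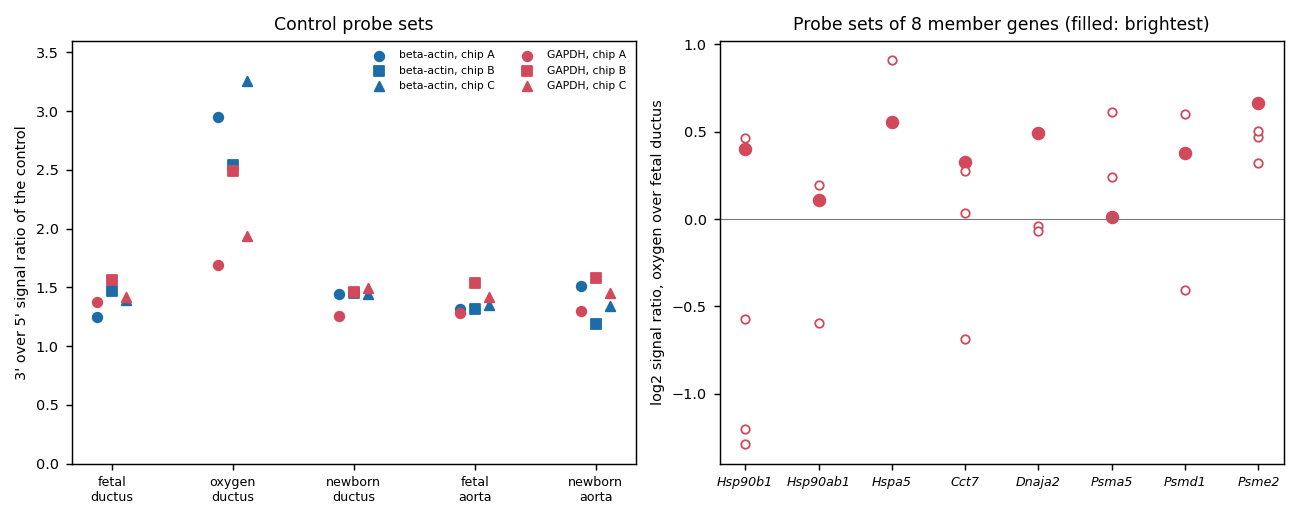
Left: signal ratio of the 3′ to the 5′ probe set (y axis) of beta-actin and GAPDH controls on each array by state and chip. Right: log2 signal ratio of oxygen over fetal ductus (y axis) for each measured probe set of 8 member genes, filled for the brightest. The oxygen arrays reach 3.26 for beta-actin against at most 1.51 elsewhere, and the Hsp90b1 probe sets run from -1.29 to 0.46.

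The J-domain proteins, which hand substrates to Hsp70, were near all genes as a group. The medians over 21 or 22 measured genes were 0.06 and -0.04 between vessels (fetus and newborn), -0.02 and 0.12 at birth (ductus and aorta) and 0.11 under oxygen. Dnajc10, a disulfide reductase of the endoplasmic reticulum, was lower after birth in both vessels: 1159.5 in fetal, 1217 in oxygen and 711 in newborn ductus, and 1293 in fetal and 638 in newborn aorta. The folds were 1.63 in ductus and 2.03 in aorta. A chip C probe set gave log2 ratios of only -0.18 and -0.19. Dnajb11, an Hspa5 partner, measured 514 in fetal, 686 in oxygen and 473 in newborn ductus, and 404 in fetal and 249 in newborn aorta, so newborn aorta was lowest, 1.62-fold below fetal aorta and 1.90-fold below newborn ductus. With the floor at the 60th percentile these log2 differences were -0.18 and 0.41.

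Dnaja1, a cytosolic partner of Hsp70, measured 1654 in fetal, 2263 in oxygen and 2222 in newborn ductus, and 1604 in fetal and 2302 in newborn aorta, and newborn states exceeded fetal ones by 0.43 in ductus and 0.52 in aorta. Its other probe set gave 0.89 and 0.55, so both probe sets read higher after birth in both vessels. Dnajb6 was 1.54-fold higher in newborn than fetal aorta (3096 to 4774) and 1.35-fold in ductus (3490.2 to 4694), with its 2 dimmer probe sets on the same side at 0.05 to 0.41. Dnajb1, the classic heat-induced partner of Hsp70, did not go with Hspa1a: it measured 683 in fetal, 832 in oxygen and 647 in newborn ductus, and 627 in fetal and 821 in newborn aorta, a birth ratio of -0.08 in ductus and 0.39 in aorta.

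Between newborn vessels Dnajc5, the cysteine string protein of vesicles, was 1.51-fold higher in ductus (1367 against 904), and Dnajc19, of the mitochondrial import motor, 1.52-fold lower (713 against 1081). Dnajc2, a ribosome-bound member, was above its floor in oxygen ductus alone (369.8), at least 1.53-fold over fetal ductus. Dnajc14 and Dnajc4 had wide ranges for the family. Dnajc14 measured 481 in fetal, 652 in oxygen and 469.8 in newborn ductus, and 449.7 in fetal and 367 in newborn aorta, and Dnajc4 492 in fetal, 387 in oxygen and 489 in newborn ductus, and 489 in fetal and 658 in newborn aorta. Dnajb2 was read at 704 to 1052 by its brightest probe set, but another of like brightness gave 203 in fetal aorta against 901 in newborn aorta, which the first did not show (-0.07).

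The cytosolic chaperonin differed little between the vessels and at birth, with Cct medians between -0.18 and 0.07 in those 4 pairs. Cct5 alone of the 7 passed 1.5-fold in them. It measured 2431 in fetal, 2537 in oxygen and 2654 in newborn ductus, and 2316 in fetal and 1735 in newborn aorta, and was thus 1.53-fold higher in newborn ductus than newborn aorta. In oxygen ductus all 7 members read above fetal ductus, by 0.06 to 0.50 (median 0.39, against 0.04 over all genes), but 0 passed 1.5-fold. Of all genes, 55.0% read above fetal ductus. Cct2 measured 2132 in fetal, 3006 in oxygen and 2436 in newborn ductus, and 2818 in fetal and 2456 in newborn aorta. Cct3 gave 1062 in fetal, 1439.8 in oxygen and 934 in newborn ductus, and 855 in fetal and 991 in newborn aorta, and Cct8 2247 in fetal, 3095 in oxygen and 2329.6 in newborn ductus, and 2077 in fetal and 1830.3 in newborn aorta. Cct4 and Cct7 lay at 0.39 and 0.32 for oxygen over fetal ductus, with a dimmer Cct7 probe set at -0.69.

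Against oxygen ductus, newborn ductus read lower in 6 of 7 (median -0.41), and Cct3 passed 1.5-fold (1.54-fold). That is 14.3% of the 7 against 14.5% of all genes. Of all genes, 43.3% read higher in newborn than oxygen ductus, with a median of -0.09. The Cct medians of these oxygen comparisons kept their sign when arrays were centred on their medians or quantile normalised. On chip A alone, which carries 2 members, the oxygen median was -0.03. Oxygen ductus was also the highest of the 5 states for 31.7% of all 6246 genes above the floor on all arrays, against 5 of 7 Cct and 26 of 43 Psm genes (60.5%).

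Proteasome genes as a group differed little between fetal vessels (median -0.02 over 44) and between newborn vessels (-0.13). At birth the medians were -0.16 in ductus, where 30 of 44 read lower, and -0.11 in aorta, where 27 of 44 did, against -0.05 over all genes in each. The shares that read higher at birth were 31.8% and 38.6%, against 45.2% and 44.8% of all genes. In oxygen ductus 35 of 45 read above fetal ductus (median 0.24, against 0.04), and in newborn ductus 39 of 45 below oxygen ductus (-0.35, against -0.09). The shares above 0 in these 2 pairs were 77.8% and 13.3%, against 55.0% and 43.3% of all genes. Past 1.5-fold, 12 were lower in newborn than oxygen ductus, 26.7% of the 45 against 14.5% of all genes. These counts hold Psmb10, which was above its floor in oxygen ductus alone. Without it, 34 of 44 read above fetal ductus under oxygen (median 0.25) and 38 of 44 below oxygen ductus in the newborn (-0.36).

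Markers of other cells moved with this comparison too. Of proliferation markers, 5 of 6 were at least 1.5-fold lower in newborn than oxygen ductus, with a summed signal of 7864 against 15760.2. Of heart muscle markers, 9 of 10 were lower by as much (median -1.40), with a summed signal of 7858 against 20091. Ccna2, Myl3 and Pln lay under the floor in newborn ductus, so they could only read lower there. The part of either in the proteasome values, like that of RNA quality, was not tested.

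The core subunits went with the group. Psma1 measured 1101 in fetal, 1440.4 in oxygen and 1118 in newborn ductus, and 1214 in fetal and 1097 in newborn aorta. Psmb5, which carries the chymotrypsin-like site, gave 4618 in fetal, 5802 in oxygen and 3922 in newborn ductus, and 4849.9 in fetal and 4411 in newborn aorta. Both were highest in oxygen ductus. Over the other 4 states Psma1 ran from 1097 to 1214 and Psmb5 from 3922 to 4849.9. Of 14 core genes, 13 were above fetal ductus under oxygen (median 0.32) and 12 were lower in newborn than oxygen ductus (-0.40), 3 past 1.5-fold (21.4%, against 14.5% of all genes). Without Psmb10 these counts were 12 and 11 of 13 (medians 0.33 and -0.43). Of all genes, 55.0% read above fetal ductus under oxygen and 43.3% read higher in newborn than oxygen ductus. The 3 past 1.5-fold were Psmb1 (2704 to 1684), Psmb2 (3548 to 2335) and Psmb3 (1793 to 1117), at 1.61-, 1.52- and 1.61-fold.

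Some core genes left this pattern. Psma3 measured 459 in fetal, 368 in oxygen and 538 in newborn ductus, and 247 in fetal and 473 in newborn aorta, lowest in fetal aorta, which was 1.86-fold below fetal ductus and 1.91-fold below newborn aorta. Psmb7, which carries the trypsin-like site, gave 2018 in fetal, 2548 in oxygen and 2321 in newborn ductus, and 2899.5 in fetal and 1903 in newborn aorta, highest in fetal aorta and 1.52-fold lower in newborn aorta. Psmb4 was higher after birth in both vessels (3104 in fetal, 4233 in oxygen and 4316 in newborn ductus, and 3356 in fetal and 4774 in newborn aorta), though its 2 other probe sets gave 0.08 and -0.05 in ductus. Of Psma6, a chip C probe set was 3.28-fold lower in newborn than fetal ductus, while the brightest differed by 0.01. Psmb10, an inducible catalytic subunit, was above its floor in oxygen ductus alone (260.2).

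In the regulatory cap, 17 of 21 genes read lower in newborn than fetal ductus. The share that read higher was 19.0%, against 45.2% of all genes. Psmd7, under the floor in newborn ductus, could only read lower. Past 1.5-fold, 3 were lower (14.3%, against 9.59% of all genes): Psmc5, Psmd14 and Psmd11. Psmc4, at a log2 ratio of -0.56, did not pass. In aorta the birth ratios were -0.49 for Psmc5, -0.23 for Psmc4, -0.18 for Psmd11 and -0.08 for Psmd14. Psmc5, an ATPase of the ring, measured 536 in fetal, 745 in oxygen and 338 in newborn ductus, and 432 in fetal and 307 in newborn aorta, 1.59-fold lower in newborn than fetal ductus and 2.21-fold lower than oxygen ductus. Psmd14, the deubiquitinase of the cap, gave 506 in fetal, 688 in oxygen and 327 in newborn ductus, and 711 in fetal and 674 in newborn aorta. It was 2.06-fold lower in newborn ductus than newborn aorta and 1.55-fold lower than in fetal ductus. Psmc4 was at 751 in fetal, 864 in oxygen and 510.5 in newborn ductus, and 659.9 in fetal and 562 in newborn aorta, and Psmd11 at 2292 in fetal, 1871 in oxygen and 1513 in newborn ductus, and 1910.5 in fetal and 1681 in newborn aorta, 1.51-fold lower in newborn than fetal ductus. For Psmd11, other probe sets gave -0.44 and -0.07.

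Psmc1 measured 1066 in fetal, 1389 in oxygen and 1167 in newborn ductus, and 1138 in fetal and 1047 in newborn aorta. Psmd1, the large scaffold of the cap, gave 2030.0 in fetal, 2632 in oxygen and 1659.5 in newborn ductus, and 1855 in fetal and 1643 in newborn aorta, highest in oxygen ductus, though 1 of its other probe sets was lower there (-0.41). Psmd8 was 1.59-fold lower in newborn (2029) than oxygen ductus (3227). Psmd3 measured 648 in fetal, 690.1 in oxygen and 598 in newborn ductus, and 424 in fetal and 655 in newborn aorta, lowest in fetal aorta. Psmd4, a ubiquitin receptor, was 1.55-fold lower in newborn than fetal aorta by its brightest probe set, while a chip C probe set gave 0.13. Over the 21 genes of this group, 14 were above fetal ductus under oxygen (median 0.21), and 20 were lower in newborn than oxygen ductus (-0.31), 6 past 1.5-fold (28.6%, against 14.5% of all genes). The shares above 0 in these 2 pairs were 66.7% and 4.76%, against 55.0% and 43.3% of all genes. Psmd10, an assembly chaperone of the cap, was even on chip B (800.1 in fetal, 793 in oxygen and 776 in newborn ductus, and 817 in fetal and 758 in newborn aorta) but not by its chip C probe set (379 in fetal, 579 in oxygen and 775 in newborn ductus, and 657 in fetal and 1024 in newborn aorta). Psmc3ip, known from meiotic recombination, was highest in newborn aorta (762 in fetal, 900.4 in oxygen and 806 in newborn ductus, and 828 in fetal and 1255 in newborn aorta).

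Activators and assembly factors were mixed. Psme1 and Psme2 together form the interferon-inducible activator. Psme2 measured 2158 in fetal, 3411 in oxygen and 2181 in newborn ductus, and 2086 in fetal and 2843 in newborn aorta, 1.58-fold higher in oxygen than fetal ductus, and its 3 other probe sets were higher by 0.32 to 0.51. Psme1 gave 3146 in fetal, 2568 in oxygen and 3877 in newborn ductus, and 3662 in fetal and 2669.5 in newborn aorta, and its probe sets split under oxygen, from -0.29 to 0.41. Psme3, the nuclear activator, was higher after birth in both vessels by its brightest probe set (394 in fetal, 407 in oxygen and 559.5 in newborn ductus, and 462 in fetal and 654 in newborn aorta) but not by the second (-0.20 and -0.31). Psme4 measured 1395 in fetal, 1864 in oxygen and 1337 in newborn ductus, and 1627 in fetal and 1106 in newborn aorta. Psmg3 gave 1005 in fetal, 1488 in oxygen and 832 in newborn ductus, and 1049 in fetal and 811 in newborn aorta and was 1.79-fold lower in newborn than oxygen ductus, and Psmg1 1.62-fold lower (1510.4 to 934).

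**Figure D5:**
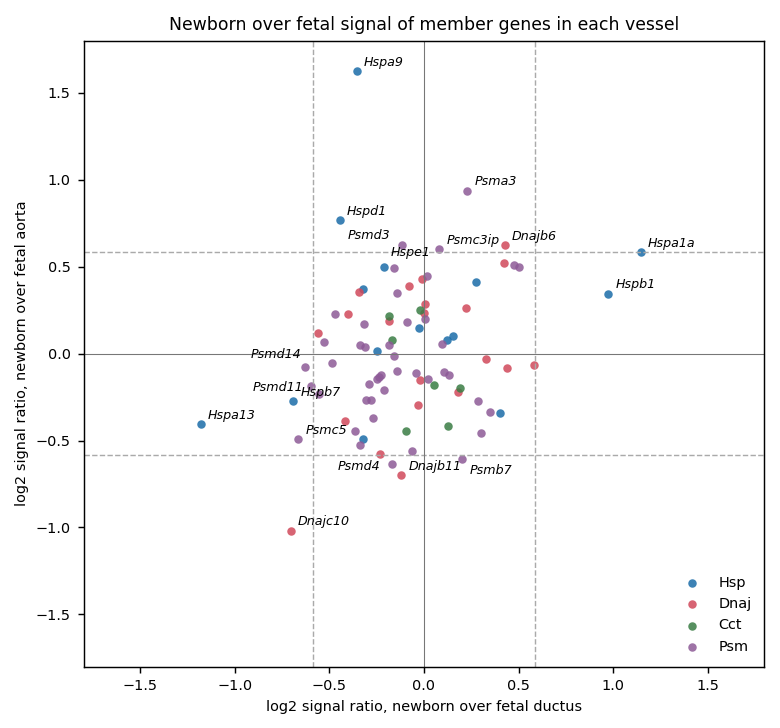
Log2 signal ratio of newborn over fetal ductus (x axis) against newborn over fetal aorta (y axis) for each member gene measured in both, coloured by family, with 1.5-fold as dashed lines. Hspb1 and Hspa1a lie to the right, Hspa9 (1.63 in aorta), Hspd1 and Hspe1 at upper left, and most Psm genes within 1.5-fold in both vessels.

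Vessel, birth and oxygen effects were also fitted with limma over 14055 probe sets, per chip, with 1 residual degree of freedom. At a Benjamini-Hochberg adjusted p under 0.05 it called 5 probe sets for vessel (0.0356%), 204 for birth (1.45%) and 3 for oxygen (0.0213%). Of the 160 member probe sets tested it called 0 in each. At an unadjusted p under 0.05 the member counts were 15, 21 and 8, or 9.38%, 13.1% and 5.00%, against 7.65%, 18.4% and 9.87% of all.

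The lowest adjusted p in limma for birth and vessel belonged to Hspb1. The second of its probe sets described above had a birth effect of 0.84 with a standard error of 0.19 (adjusted p 0.0686) and a vessel effect of 0.93, also with 0.19 (adjusted p 0.195). For Hspa1a the limma birth effect was 0.87 ± 0.21 (SE, adjusted p 0.117) on chip C and 0.85 ± 0.21 (adjusted p 0.0807) on chip A. Dnajc10 had a limma birth effect of -0.86 ± 0.22 (adjusted p 0.0823), opposite in sign, and for oxygen the lowest adjusted p was 0.184, for the 2 lower Hsp90b1 probe sets. Under other settings limma did call some of these, as given at the end.

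Genes that work with the members were read beside them from a fixed list of 62, of which 50 were measured. Heat shock factors and co-chaperones showed 0 of 14 past 1.5-fold between fetal vessels. At birth Bag2 (log2 0.79) was higher in ductus and Chordc1 (-0.84, newborn at the floor) and Ptges3 (-0.64) lower, and in aorta Bag3 (0.62) and Ppid (0.75) were higher. Bag3, which links Hspb and Hsp70 proteins, lay at 0.40 in ductus at birth, and Hsf1, the heat shock factor itself, at 0.12 in ductus and -0.21 in aorta. Cryab, alphaB-crystallin, which is a small heat shock protein by another name, was higher in ductus than aorta in the fetus (0.81) and the newborn (0.63).

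Of the partners of the proteasome, 9 were measured under oxygen. Their median was -0.10, with 0 higher and 1, Ube3a (-0.70), lower past 1.5-fold. Nfe2l1, known to drive proteasome genes, lay at -0.55 under oxygen and 0.14 in ductus and 0.82 in aorta at birth. Psmb8, the immunoproteasome subunit left out by the rule, was higher at birth in ductus (1.13) and aorta (0.61). Pomp, which matures the core, lay at 0.23 under oxygen and -0.44 in newborn against oxygen ductus.

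Probe sets of a gene did not always go together. Among member genes read by at least 2 measured probe sets, the direction was shared by all of them in 17 of 40 between fetal vessels, 21 of 41 between newborn vessels, 23 of 40 and 21 of 40 at birth in ductus and aorta, 18 of 37 under oxygen and 20 of 37 between newborn and oxygen ductus. Over all genes these shares were 52.2%, 54.0%, 56.9%, 59.4%, 43.0% and 53.3%. The antioxidant core TGACNNNGC was in 13 of 90 member windows and 12.1% of all windows, and TATAAA in 8 and 14.2%.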

How the data were processed

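The authors deposited 1 signal intensity per probe set and array, scaled on each array to a common trimmed mean of 500.3 to 500.9 (2% trimmed at each end, computed here). MAS5 is named in the submitters' processing notes for 4 of the 5 chip A arrays; for the others the software is not given in the sources used here. Each state is 1 array per chip type, whose number limits the precision. Probe sets were named by the platform annotation, and 18178 of 26202 carry 1 gene. Members, gene lists, thresholds and motifs were chosen with earlier results of these data known.

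Signals were floored at the pooled median of a chip and log2 ratios taken between states for each gene's brightest probe set (mean over 5 arrays), with no test. Genes named with all 5 signals are the up to 4 with the widest range per family, preset representatives, and the up to 3 furthest past 1.5-fold per pair and family. Probe sets going the other way past 1.5-fold are stated, and a few were added after values were seen (Psma6, Psmb10, Psmd10, Dnajb2, Dnajb6, Dnaja1, Dnajc19).

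Vessel, birth and oxygen were fitted additively with limma 3.58.1 (R 4.3.3) per chip, over probe sets with 2 or more of 5 arrays above the floor, with Benjamini-Hochberg adjustment per chip. The vessel-by-birth contrast was the error, so the p-values measure only the spread between these arrays, and the oxygen term rests on 1 array per chip. The fit was tested on simulated data. Alternatives were the floor, scaling, probe set choice, both arrays above the floor, chip A alone, a limma trend, and leaving out the oxygen arrays.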

Additional observations from a re-analysis of the deposited data

Results flagged for a closer look

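For 2 members the newborn over fetal ratios of ductus and aorta lay on opposite sides of 0 and at least 1 apart on the log2 scale. Other members also had ratios of opposite sign, with smaller differences. Hspa9, the mitochondrial Hsp70, had a birth response that was -1.98 on the log2 scale in ductus minus aorta. For Hspd1, the mitochondrial chaperonin, this difference was -1.21. Each rests on 1 array per state, and the difference between vessels was not tested. Most fat markers given with the mitochondrial chaperones, though not Lep, moved with newborn aorta. The second measured Hspa9 probe set gave 0.25 for birth in aorta and -0.24 in ductus.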

How the results depend on the processing

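Under the alternatives tried, 206 of 208 family medians and 457 of 502 values of single genes moved by less than 0.31, the typical spread of a log2 ratio taken from the vessel-by-birth contrast, and 76 of 104 counts of members past 1.5-fold stayed within 1.5 times. Of the family medians, 21 changed sign, 19 of them between values within 0.20 of 0. Of the single values 38 moved and 7 reversed. The reversed values, all set by which probe set was read, were Hsp90b1 in newborn over oxygen ductus (1.04 on chip A alone, 0.12 with the mean of probe sets), Hspb1 in newborn ductus over newborn aorta (-0.38 with plain-suffix probe sets), Hspb7 in newborn over fetal ductus (0.083 with the mean), Psmd4 in newborn over fetal aorta and newborn over oxygen ductus (0.13 and 0.26, plain suffix) and Psme2 in newborn over oxygen ductus (0.045, plain suffix). The Cct median on chip A alone was 0.16 for birth in aorta and -0.031 for oxygen over fetal ductus.

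On chip A alone, with fewer members (47 or 48 measured per pair), 2 were higher between fetal vessels, and 4 higher and 3 lower between newborn vessels. At birth 3 were lower in ductus, and 3 higher and 1 lower in aorta, and under oxygen 1 was higher and 1 lower. Shares of all genes on that chip were 4.65% higher between fetal vessels and 6.19% higher and 5.70% lower between newborn vessels. At birth they were 9.76% lower in ductus and 8.06% higher and 11.4% lower in aorta, and under oxygen 2.23% higher and 7.72% lower. With the floor at the 25th percentile, 2 were lower between fetal vessels, 7 lower at birth in aorta, and 4 higher and 3 lower under oxygen, beside shares of all genes of 9.03%, 15.2%, 6.33% and 10.4%. With it at the 60th, 4 were higher between newborn vessels and 1 under oxygen. With the mean of probe sets, 4 were higher and 3 lower between newborn vessels, 0 higher under oxygen and 3 higher in newborn over oxygen ductus. With plain-suffix probe sets, 1 was lower between fetal vessels, 0 higher at birth in ductus, 1 higher and 1 lower under oxygen, and 3 higher in newborn over oxygen ductus. Median centring gave 10 higher at birth in aorta and 4 under oxygen; quantile normalisation gave 1 lower between fetal vessels and 1 higher under oxygen; asking for both arrays above the floor gave 1 higher under oxygen. Over these alternatives the shares of all genes also moved, between 2.76% and 7.06% higher and 3.45% and 9.03% lower between fetal vessels, 5.63% and 10.04% higher and 7.56% and 15.2% lower at birth in aorta, and 2.23% and 6.33% higher and 3.02% and 10.4% lower under oxygen. Between newborn vessels they ran from 3.96% to 9.765% higher and 4.21% to 9.08% lower. At birth in ductus the range was 5.29% to 10.5% higher and 6.83% to 12.8% lower. In newborn over oxygen ductus it was 7.17% to 16.1% higher and 10.4% to 15.9% lower. Scaling also turned the sign of family medians near 0: Hsp in newborn over oxygen ductus (0.14, and -0.06 after quantile normalisation) and Hsp, Dnaj and Cct at birth in ductus (between -0.03 and 0.04). The cause was not tested.

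limma called 0 member probe sets in the design given, but for birth 6 with an intensity trend, 2 over probe sets above the floor on all 5 arrays, 2 after quantile normalisation and 1 with the floor at the 60th percentile, and with the trend 2 for vessel and 2 for oxygen. Of all probe sets, limma then called 503 (3.58%, against 3.75% of members), 315 (2.90%, against 1.38%), 273 (1.95%, against 1.25%) and 358 (3.15%, against 0.694%) for birth. With the trend limma called 62 for vessel (0.441%, against 1.25% of members). It called 65 for oxygen (0.462%, against 1.25%), a term that rests on 1 array per chip. The trend calls were of Hspb1, Hspa1a, Psmd2 and Psmb4 for birth, Hspb1 for vessel and the lower Hsp90b1 probe sets for oxygen; the others were of Dnajc10, Hspb1, Hspa1a and Psmd10. Without the oxygen arrays limma called 0 for vessel and 0 for birth. Leaving those arrays out of the floor and the probe set choice, an alternative chosen after seeing the data, gave 5 higher between fetal vessels and no other change in the counts. Heat shock elements of 2 units were in 19 member promoters against 5 with 3 units. No paired analysis was possible because each state has 1 array per chip type. Signals under or close to the floor limit Hspa2, Hspa12b, Hspa13, Dnajc2 and Dnajb11.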
